A study of Homo sapiens with 24 samples.

Results

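Confluent cultures were compared with Subconfluent cultures of keratinocytes in 3 knockdown genotypes, to describe the change in gene expression that these genotypes share when the cells fill the dish. The members are the 12 of 24 libraries whose labels give the genotype KAT2AB_KD, KAT2B_KD or KAT2A_KD and the stage Subconfluent or Confluent, with 2 libraries in each of these 6 groups, so that 6 Confluent libraries stand against 6 Subconfluent ones. The cells are N/TERT-1 (nTERT-1 in the labels), a human keratinocyte line made immortal with telomerase, and what was sequenced is polyadenylated RNA. The whole study holds these genotypes and NT at the stages Subconfluent, Confluent and Differentiated. All 12 members carry a knockdown label, so no library here stands for unmanipulated cells. The sources used here do not say how the knockdowns were made, whether each genotype is 1 clone, what NT stands for or how long the cells had been confluent. They also do not say whether the 2 libraries of each group are separate cultures, so a p-value here is set against a spread that may be technical.

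KAT2A (GCN5) and KAT2B (PCAF) are related lysine acetyltransferases, and each can serve as the catalytic subunit of the SAGA and ATAC coactivator complexes. Keratinocytes of the basal epidermal layer divide while bound to the basement membrane through integrins and laminins, and they begin to differentiate when they lose that contact. Crowding is known to act on the same programme in culture: cell contacts form, the coactivators YAP and TAZ leave the nucleus, and early differentiation genes switch on before the granular and cornified genes.

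Library totals ran from 8010178 to 15550650 counts, and 14871 of 26364 genes had enough counts to be tested. The 2 libraries of a group correlated at 0.963 to 0.979 across genes (log2 CPM, a description over genes). Levels are given in CPM, read counts scaled to a common library size by edgeR's trimmed mean method. The summed level of 8 keratinocyte markers was 22693 to 26584 CPM in the Subconfluent and 33663 to 46946 CPM in the Confluent libraries. The summed level of 9 melanocyte markers was 6.91 to 19.8 and 5.87 to 11.8 CPM, with the pigment enzyme gene TYR and the receptor gene EDNRB at 0 reads in all 12 libraries. That of 12 fibroblast markers was 6.91 to 16.5 and 8.76 to 14.8 CPM.

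The targeted genes were read first, on a scale computed over 16 libraries that include NT. KAT2A stood at 3.81 and 4.56 CPM in the Subconfluent and 4.41 and 5.65 CPM in the Confluent libraries of KAT2A_KD. In KAT2AB_KD it stood at 9.18 and 11.6 CPM, then 8.22 and 1.84 CPM, and in KAT2B_KD at 27.1 and 28.3 CPM, then 41.1 and 41.9 CPM. All 8 libraries labelled KAT2A_KD or KAT2AB_KD lay below the NT libraries, which held 33.0 and 36.0 CPM, then 42.3 and 40.1 CPM. KAT2B stood at 0.166 and 1.17 CPM, then 0.738 and 1.38 CPM, in KAT2B_KD, and at 2.13 and 1.33 CPM, then 3.31 and 0.998 CPM, in KAT2AB_KD. In KAT2A_KD it held 5.38 and 5.76 CPM, then 7.58 and 8.78 CPM, against 5.21 and 6.14 CPM, then 4.74 and 4.47 CPM, in NT. Between the stages neither target passed the test over the 12 libraries: the log2 difference was -0.04 (SE 0.29, adjusted p = 0.962) for KAT2A and 0.49 (SE 0.34, adjusted p = 0.447) for KAT2B.

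In the Confluent libraries 517 genes were higher (3.48% of those tested) and 590 were lower (3.97%), 7.44% in all, by edgeR's quasi-likelihood test with genotype as covariate and a Benjamini-Hochberg adjusted p under 0.05 over all genes. Most changes were under 2-fold: 174 of the higher and 112 of the lower genes moved by 2-fold or more, and 409 genes moved by less than 1.5-fold. The median log2 difference of all tested genes was -0.0026. With each Confluent library paired to the Subconfluent library of its genotype and deposited replicate number, 1721 genes passed, 907 higher and 814 lower. List counts given below for the paired fit stand against these larger totals. Every fold and log2 difference below is Confluent over Subconfluent, and each value, standard error (SE) and adjusted p comes from the unpaired fit over 12 libraries unless another fit is named.

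The 10 largest rises and the 10 largest falls named first are those of genes that passed, averaged 1 or more in log2 CPM and had both Confluent libraries on 1 side in every genotype. Called genes outside this choice can lie beyond them, as ANKRD1 does below every named fall and CA9 above most of the named rises. IGFBP3, a secreted binder of insulin-like growth factors and a known YAP target, ran from 0 to 4.44 CPM (median 1.06) in Subconfluent to 18.8 to 77.1 CPM (median 38.1) in Confluent libraries, 26.8-fold (log2 4.74 ± 0.39 SE, adjusted p = 1.99e-06). CXCL14, an epithelial chemokine, ran from 0.674 to 5.26 CPM (median 3.12) to 26.3 to 67.8 CPM (median 49.2), 15.2-fold (log2 3.93 ± 0.28 SE, adjusted p = 5.84e-07). For both genes every Confluent library lay above every Subconfluent one, a separation found for 1.49% of all tested genes in this direction. GRHL3, a transcription factor needed for the epidermal barrier, ran from 0.674 to 4.29 CPM (median 2.68) to 11.6 to 23.8 CPM (median 16.2), 6.85-fold (adjusted p = 1.75e-06). OVOL1, a repressor that helps keratinocytes leave the cell cycle, ran from 0.168 to 2.96 CPM (median 1.69) to 4.37 to 11.4 CPM (median 7.87), 5.203-fold (adjusted p = 3.77e-05). AQP3, the water and glycerol channel of the epidermis, ran from 1.18 to 7.01 CPM (median 4.88) to 15.6 to 30.9 CPM (median 21.4), 5.099-fold (adjusted p = 0.000175). These 3 genes also separated all 6 Confluent from all 6 Subconfluent libraries.

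WNT10A, a Wnt ligand of skin appendages, separated the stages too, at 0.337 to 6.66 CPM against 7.44 to 18.5 CPM (5.65-fold, adjusted p = 0.000314). DSG1, the desmosomal cadherin of the suprabasal layers, ran from 0.253 to 4.88 CPM (median 2.31) to 2.94 to 35.7 CPM (median 10.8), 6.39-fold (adjusted p = 0.000114). ZNF750, a transcription factor of late differentiation, ran from 0.253 to 3.55 CPM (median 1.27) to 1.17 to 11.1 CPM (median 7.16), 4.74-fold (adjusted p = 8.34e-05). Across genotypes the DSG1 and ZNF750 ranges overlapped. Within each genotype both Confluent libraries lay above both Subconfluent ones, which the choice of named genes required (3.75% of tested genes met it in this direction). COL5A3, a fibrillar collagen chain, and MMP13, a collagenase, complete the 10 largest rises at 5.27-fold (adjusted p = 0.00147) and 4.68-fold (adjusted p = 0.000293).

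Among the 10 falls, CHAC1, a glutathione-degrading enzyme and a textbook ATF4 target, fell from 3.28 to 8.26 CPM (median 5.08) to 0.302 to 1.38 CPM (median 1.06), 6.43-fold lower (log2 -2.68 ± 0.31 SE, adjusted p = 5.85e-05). LBH, a transcriptional regulator of basal epithelial cells, went from 2.96 to 3.92 CPM (median 3.47) to 0.296 to 1.08 CPM (median 0.478), 5.76-fold lower (adjusted p = 0.000175). Both genes had all 6 Confluent libraries below all 6 Subconfluent ones, as did 1.99% of tested genes. ADAMTS6, a secreted metalloprotease, went from 13.2 to 19.02 CPM (median 16.5) to 2.85 to 5.86 CPM (median 3.11), 4.34-fold lower (adjusted p = 5.19e-06). PMEPA1, a feedback inhibitor of TGF-beta signalling, went from 71.3 to 125 CPM (median 94.4) to 21.6 to 32.2 CPM (median 25.1), 3.701-fold lower (adjusted p = 1.97e-07). THBS1, the abundant matrix protein thrombospondin, went from 6563 to 8806 CPM (median 8391) to 1739 to 2963 CPM (median 2183), 3.61-fold lower (adjusted p = 1.97e-07). The stages did not overlap for these 3 genes, nor for the metalloprotease gene ADAM19 (4.55-fold lower, adjusted p = 1.02e-05) and the cytokine gene LIF (3.91-fold lower, adjusted p = 3.65e-05).

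For the remaining falls the stages overlapped across genotypes. Within each genotype both Confluent libraries lay below both Subconfluent ones, which the choice of named genes required (4.94% of tested genes met it in this direction). SCG5, a chaperone of secretory granules, was 5.22-fold lower (adjusted p = 3.52e-05) and CSF3, the granulocyte growth factor, 3.76-fold lower (adjusted p = 0.00258). STC2, a secreted glycoprotein induced by ATF4, ran from 1.23 to 6.05 CPM (median 3.53) to 0 to 1.66 CPM (median 0.671) (adjusted p = 0.0214). The STC2 call was lost without KAT2B_KD Confluent 1 (adjusted p = 0.0625) and without KAT2AB_KD Subconfluent 2 (adjusted p = 0.053).

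**Figure D1:**
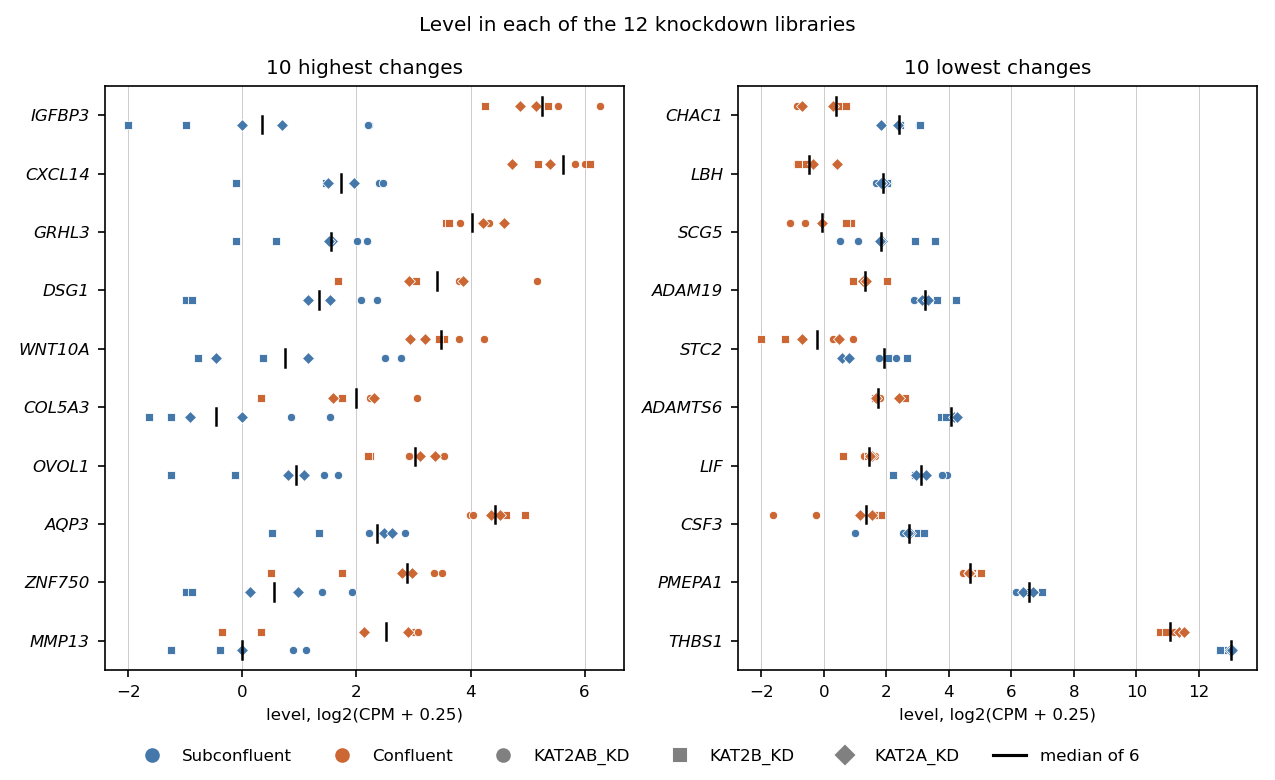
Level of the 10 genes with the highest and the 10 with the lowest log2 difference, as log2(CPM + 0.25) on the x axis, in each of the 12 libraries (blue Subconfluent, orange Confluent; the shape marks the genotype, the black bar the median of 6). IGFBP3 stood at 0 to 4.44 CPM in Subconfluent and 18.8 to 77.1 CPM in Confluent libraries, while KAT2B_KD Subconfluent libraries (blue squares) lie at the low end for most of the rising genes.

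Targets of YAP and TAZ, the coactivators that crowding restrains, were lower in most cases. Of 22 listed and tested targets 12 fell and 1 rose, with a median log2 difference of -0.49. F3, the gene of tissue factor, ran from 432 to 601 CPM (median 476) to 157 to 262 CPM (median 188), 2.52-fold lower (log2 -1.33 ± 0.10 SE, adjusted p = 9.16e-07). CYR61, a matricellular protein and the classic YAP target, ran from 176 to 306 CPM (median 294) to 78.4 to 119 CPM (median 89.7), 2.85-fold lower (log2 -1.51 ± 0.14 SE, adjusted p = 7.85e-06). Neither gene's stages overlapped, and both passed the test within each genotype, with the spread pooled over the 6 groups. CTGF, its close relative, ran from 8.78 to 47.1 CPM (median 27.6) to 5.89 to 15.04 CPM (median 6.99), 3.21-fold lower with overlapping ranges (adjusted p = 0.000744). ANKRD1 had 77 reads over the Subconfluent libraries and 1 read over the Confluent ones, a ratio of 69.5 with a 95% exact interval of 12.1 to 2782 that covers counting error only (adjusted p = 0.000435). The 1 target that rose was IGFBP3. TGFB2, a TGF-beta ligand, and AMOTL2, an angiomotin that binds YAP, fell by 0.98 and 0.54 on the log2 scale (adjusted p = 0.000594 and 0.00435).

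The start of transcription of CTGF (CCN2 in RefSeq) and ANKRD1 is shown because both windows hold the letters of the motif of TEAD, the DNA-binding partner of YAP. The 250 bases before the start, from RefSeq on GRCh38.p14, read 5′ to 3′ on the gene's strand, with each GGAATG (or its reverse complement CATTCC) in capitals. CTGF lies at chr6:131951373-131951622 on the minus strand and ANKRD1 at chr10:90921088-90921337 on the minus strand.
CTGF: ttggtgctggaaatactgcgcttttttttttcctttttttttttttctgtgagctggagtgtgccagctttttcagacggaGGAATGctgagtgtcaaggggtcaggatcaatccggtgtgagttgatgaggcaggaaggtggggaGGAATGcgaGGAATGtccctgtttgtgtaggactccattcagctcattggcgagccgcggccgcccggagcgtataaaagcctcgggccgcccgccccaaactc
ANKRD1: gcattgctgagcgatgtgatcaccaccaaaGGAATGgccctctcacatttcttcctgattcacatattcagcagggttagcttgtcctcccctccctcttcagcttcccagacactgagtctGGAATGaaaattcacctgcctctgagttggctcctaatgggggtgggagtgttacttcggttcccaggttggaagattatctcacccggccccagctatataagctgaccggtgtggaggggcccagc
CTGF holds 3 matches, from 169 to 95 bases before the start, and ANKRD1 holds 2. Windows were found for 16 of the 22 tested targets, and 8 of their 18 windows (44.4%) hold the motif, against 9.95% of the 16227 windows of all tested genes. A match is a description of the letters, and binding was not measured here. F3 has no match in its window.

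Growth factor signalling genes fell with them. Of 15 tested genes of the EGF receptor family, its ligands and its feedback inhibitors, 9 fell and 2 rose (median log2 difference -0.61). DUSP6, a phosphatase of ERK and a readout of its activity, ran from 98.95 to 125 CPM (median 111) to 24.8 to 65.2 CPM (median 52.3), 2.45-fold lower (adjusted p = 6.62e-05). SPRY4 and SPRY2, further inhibitors of receptor signalling, were 2.74-fold and 2.64-fold lower (adjusted p = 0.00117 and 0.00051). For DUSP6, SPRY4 and SPRY2 no Confluent library reached the lowest Subconfluent one. Among the ligands AREG ran from 423 to 597 CPM (median 514) to 265 to 374 CPM (median 341) (adjusted p = 0.00344), TGFA from 61.9 to 69.9 CPM (median 63.5) to 39.6 to 55.8 CPM (median 44.6) (adjusted p = 0.0035) and HBEGF from 6.65 to 10.6 CPM (median 9.65) to 3.91 to 5.53 CPM (median 5.18) (adjusted p = 0.00295). All 3 ligands lay lower in every Confluent library. The risers were the receptor ERBB3 (log2 0.72, adjusted p = 0.0114) and the ligand EPGN (log2 0.90, adjusted p = 0.0184), and 1 of the 2 passed without KAT2AB_KD Subconfluent 2. Of 18 immediate early and AP-1 genes 5 fell and 1 rose (median -0.10). The AP-1 subunits JUN and FOSL1 fell by 1.09 and 0.95 on the log2 scale (adjusted p = 0.000976 and 0.000181), and FOSL2 rose by 0.66 (adjusted p = 0.00138). With the libraries paired, 2 of these genes rose.

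Genes of the TGF-beta response and of mesenchymal matrix fell in 10 of 24 tested members and rose in 2 (median log2 difference -0.40). FN1, fibronectin, ran from 5713 to 14209.8 CPM (median 7423) to 1332 to 4661 CPM (median 3273), 2.65-fold lower (adjusted p = 0.000767), without overlap. INHBA, the activin subunit, ran from 67.2 to 101 CPM (median 70.1) to 28.3 to 44.1 CPM (median 40.1), 2.05-fold lower (adjusted p = 1.02e-05), also without overlap. TAGLN, an actin-binding protein often read as a TGF-beta target, went the other way, from 2.36 to 26.8 CPM (median 8.84) to 12.7 to 64.7 CPM (median 30.8), 3.22-fold (adjusted p = 3.52e-05). Its ranges overlapped across genotypes, and it passed within each genotype in the same fit of 6 groups. Of 15 tested matrix metalloproteases, their inhibitors and plasminogen activators 6 rose and 4 fell (median -0.24). The secreted collagenases MMP13 and MMP1 rose by 2.23 and 1.57 on the log2 scale (adjusted p = 0.000293 and 3.52e-05). The plasminogen activator gene PLAT fell by 1.04 (adjusted p = 4.27e-05) and the gelatinase gene MMP2 by 0.87 (adjusted p = 0.0019).

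**Figure D2:**
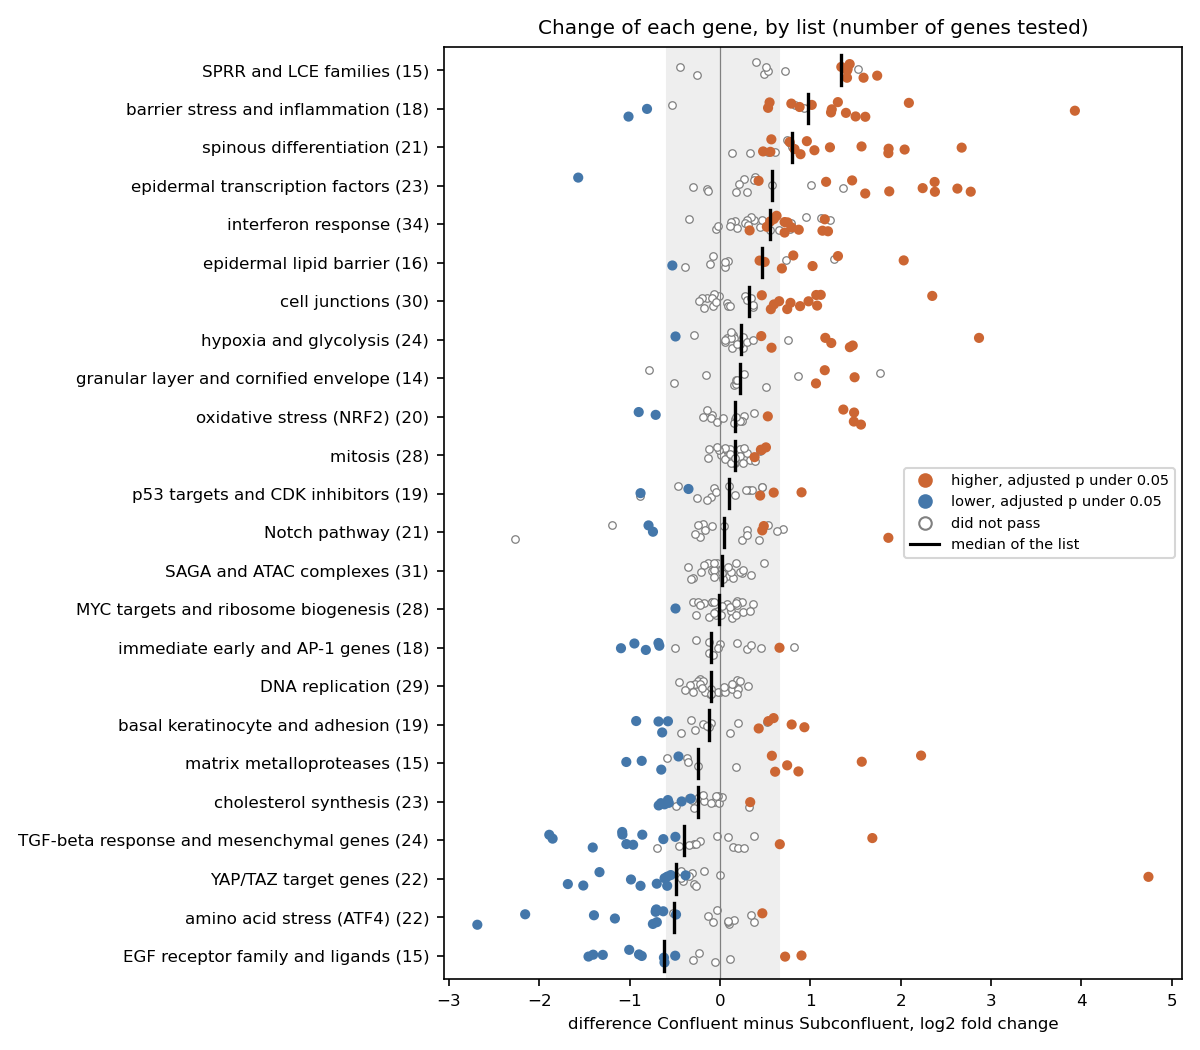
Log2 difference of each tested gene, Confluent minus Subconfluent, by gene list (orange higher and blue lower at an adjusted p under 0.05, open did not pass; black bar the list's median; grey band the 5th to 95th percentile of all tested genes). ANKRD1 is left out of the plot because 1 read stands behind its Confluent level; the YAP/TAZ, EGF receptor and ATF4 medians lie at -0.49, -0.61 and -0.50, and that of the SPRR and LCE families at 1.34.

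Of 19 tested basal and adhesion genes 5 rose and 4 fell (median log2 difference -0.13). The risers were the keratins KRT5, KRT14 and KRT15, the cytolinker DST and the transcription factor TP63. The DST call (adjusted p = 0.0402) was kept without KAT2B_KD Confluent 1, KAT2A_KD Confluent 1, KAT2B_KD Subconfluent 2 or KAT2AB_KD Confluent 2 and lost without each of the other 8 libraries. KRT15, a keratin of basal and stem-like cells, ran from 972 to 1285 CPM (median 1141) to 1832 to 2411 CPM (median 2225), 1.91-fold (adjusted p = 8.34e-05). KRT14, the main basal keratin, ran from 6914 to 8184 CPM (median 7583) to 10587 to 15680.2 CPM (median 13885), 1.73-fold (adjusted p = 0.000559). The stages did not overlap for either keratin. The fallers were the integrins ITGA2 and ITGB6 and the laminin chains LAMA3 and LAMB3. ITGB6 ran from 54.8 to 91.8 CPM (median 79.1) to 27.7 to 49.8 CPM (median 42.4), 1.901-fold lower (adjusted p = 0.000836), without overlap. LAMA3 and LAMB3 fell by 0.57 and 0.64 on the log2 scale (adjusted p = 0.00964 and 0.0108).

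**Figure D3:**
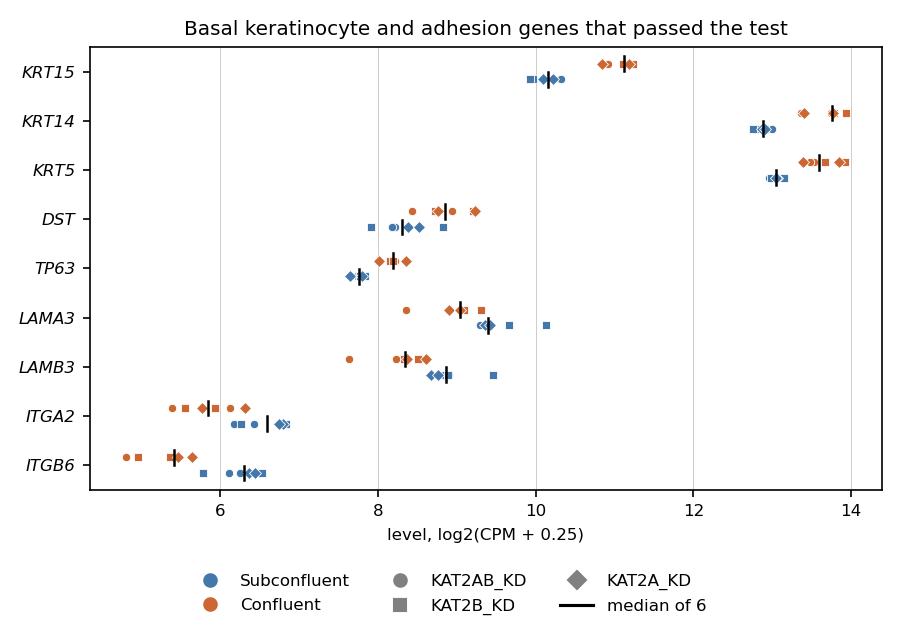
Level of the 9 basal keratinocyte and adhesion genes that passed, as log2(CPM + 0.25) on the x axis, in each of the 12 libraries (blue Subconfluent, orange Confluent; shape marks the genotype, the black bar the median of 6). The keratins lie to the right in Confluent libraries and the integrins and laminin chains to the left; KRT15 stood at 972 to 1285 CPM and 1832 to 2411 CPM.

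Spinous genes, the first differentiation programme above the basal layer, rose in 14 of 21 tested members (median log2 difference 0.80), and the other 7 did not pass. KRT10, the suprabasal keratin, ran from 173 to 294 CPM (median 249.8) to 319 to 498 CPM (median 428), 1.77-fold (adjusted p = 0.000516), and its partner KRT1 from 274 to 328 CPM (median 287) to 359 to 484 CPM (median 429), 1.47-fold (adjusted p = 0.00182). PKP1, a plakophilin of suprabasal desmosomes, ran from 112 to 254 CPM (median 148) to 285 to 475 CPM (median 312), 2.07-fold (adjusted p = 0.000112). These 3 genes did not overlap between stages. TGM1, the transglutaminase that crosslinks the cell envelope, ran from 2.21 to 32.5 CPM (median 11.3) to 23.5 to 75.5 CPM (median 42.1), 4.13-fold (adjusted p = 0.000111), with overlap across genotypes. It passed within each genotype in the fit of 6 groups.

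In the granular layer and cornified envelope list, which belongs to later steps of differentiation, 3 of 14 tested genes rose (LYPD3, KLK11 and FLG; median 0.22), and 8 more listed genes had too few reads to be tested. LYPD3, a surface protein of upper layers, ran from 11.4 to 37.9 CPM (median 27.3) to 30.4 to 86.6 CPM (median 55.6), 2.24-fold (adjusted p = 3.52e-05). Of the fits that leave out 1 library, LYPD3 passed in all 12. KLK11, a kallikrein protease, lost its call in 5 of them, without KAT2A_KD Subconfluent 1, KAT2B_KD Confluent 1, KAT2A_KD Confluent 1, KAT2AB_KD Subconfluent 2 or KAT2B_KD Subconfluent 2 (adjusted p up to 0.0547). FLG, filaggrin, kept its call without KAT2B_KD Subconfluent 1, KAT2B_KD Confluent 1, KAT2B_KD Subconfluent 2, KAT2AB_KD Confluent 2 or KAT2A_KD Confluent 2. It lost the call without each of the other 7 libraries (adjusted p up to 0.0994) and by DESeq2 (adjusted p = 0.121). The list's count was 5 with the libraries paired, and 1 without KAT2A_KD Subconfluent 1, KAT2A_KD Confluent 1 or KAT2AB_KD Subconfluent 2. HRNR, hornerin, ran from 0 to 15.5 CPM (median 2.89) to 5.86 to 15.8 CPM (median 9.54) and did not pass (adjusted p = 0.06); with the libraries paired it did (adjusted p = 0.0273), and so it did without KAT2AB_KD Subconfluent 1 (adjusted p = 0.0129) or KAT2AB_KD Confluent 2 (adjusted p = 0.0318). Of 15 tested small proline-rich and late envelope genes 7 rose (median 1.34), and all 7 were SPRR genes. A further 11 of the 26 listed genes, SPRR4 and LCE genes, had too few reads to be tested. SPRR1B, a crosslinked envelope precursor, ran from 1.77 to 48.01 CPM (median 28.7) to 7.13 to 110.3 CPM (median 58.2), 2.65-fold (adjusted p = 0.000546). The SPRR2 genes are near-identical copies, so their counts may be split among them and their values are uncertain.

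Lipid barrier enzymes rose in 7 of 16 tested genes and fell in 1 (median 0.47). CERS3, the ceramide synthase of very long chains, ran from 14.02 to 26.1 CPM (median 19.2) to 31.3 to 51.2 CPM (median 40.6), 2.04-fold (adjusted p = 0.000107), without overlap. SULT2B1, the cholesterol sulphotransferase, ran from 0 to 4.29 CPM (median 2.47) to 2.26 to 12.2 CPM (median 8.31) (adjusted p = 0.00086), with overlap across genotypes. UGCG, which makes glucosylceramide, fell by 0.53 on the log2 scale (adjusted p = 0.0106).

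Epidermal transcription factors rose in 10 of 23 tested genes and fell in 1 (median 0.57). Beside GRHL3, OVOL1 and ZNF750, KLF5 ran from 49.1 to 64.1 CPM (median 53.9) to 109.9 to 140.3 CPM (median 126), 2.26-fold (adjusted p = 4.32e-06), and MAF, a regulator of late differentiation, from 1.68 to 2.73 CPM (median 2.37) to 5.55 to 13.6 CPM (median 8.09), 3.67-fold (adjusted p = 4.38e-05). Neither overlapped between stages. SOX9, a factor of hair follicle stem cells and of basal growth, was the faller, from 49.02 to 77.8 CPM (median 69.95) to 19.1 to 27.3 CPM (median 22.6), 2.96-fold lower (log2 -1.57 ± 0.12 SE, adjusted p = 8.72e-07). No Confluent library reached the lowest Subconfluent one for SOX9, and it passed within each genotype in the fit of 6 groups. With the libraries paired, 2 of these factors fell.

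In the Notch pathway, which drives the step from basal to spinous cells, 3 of 21 tested genes rose and 2 fell (median 0.04). The receptor NOTCH3 ran from 0.168 to 26.2 CPM (median 8.91) to 8.13 to 68.4 CPM (median 25.2) (adjusted p = 0.00473) and its target HES1 from 19.02 to 28.4 CPM (median 25.9) to 31.2 to 40.5 CPM (median 33.4) (adjusted p = 0.0138). The ligand JAG1 fell from 157 to 239 CPM (median 189.9) to 73.7 to 129.7 CPM (median 117) (adjusted p = 0.000999). The ranges of NOTCH3 overlapped across genotypes, while those of HES1 and JAG1 did not. MAML2, a Notch coactivator, was the other faller (adjusted p = 0.0265), and its call was kept without KAT2B_KD Subconfluent 1, KAT2A_KD Subconfluent 1, KAT2AB_KD Confluent 1, KAT2B_KD Confluent 2 or KAT2A_KD Confluent 2 and lost without each of the other 7 libraries.

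Cell junction genes rose in 12 of 30 tested members (median 0.32), and the other 18 did not pass. The largest rise of this list, log2 2.35, was that of AQP3, the channel named above, which is not a junction gene. GJB6 (connexin 30), a gap junction channel of the epidermis, ran from 26.03 to 34.2 CPM (median 27.6) to 53.01 to 76.7 CPM (median 61.4), 2.17-fold (log2 1.12 ± 0.10 SE, adjusted p = 4.32e-06). DSG3, the desmosomal cadherin of lower layers, ran from 94.8 to 134 CPM (median 117) to 190.3 to 275 CPM (median 206), 1.85-fold (adjusted p = 4e-05), and DSC2, a desmocollin, from 22.4 to 38.8 CPM (median 38.2) to 39.2 to 109 CPM (median 73.5), 2.11-fold (adjusted p = 6.46e-05). All 3 separated the stages. The other risers included the connexins GJB2 and GJA1, the desmosomal proteins DSC3, JUP and PERP, and the tight junction claudin CLDN1.

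Barrier stress and inflammation genes rose in 13 of 18 tested members and fell in 2 (median 0.98), and 10 more listed genes had too few reads to be tested. The wound keratins KRT6A, KRT6B, KRT16 and KRT17 were among the risers. KRT16 ran from 3076 to 4355 CPM (median 3606) to 5298 to 7722 CPM (median 6955), 1.84-fold (adjusted p = 0.000343), without overlap, though KRT6A and KRT6B, and KRT16, KRT17 and KRT14, have close copies between which reads may be split. IL1RN, the interleukin-1 receptor antagonist, ran from 3.84 to 23.6 CPM (median 10.9) to 12.2 to 46.4 CPM (median 29.5), 2.47-fold (adjusted p = 3.52e-05). S100A8, a calprotectin subunit, ran from 2.36 to 33.7 CPM (median 23.97) to 8.47 to 76.3 CPM (median 51.1), 2.63-fold (adjusted p = 0.000143), and both ranges overlapped across genotypes. The 2 fallers were interleukin-1 itself. IL1A ran from 75.8 to 100.00 CPM (median 93.00) to 37.6 to 61.2 CPM (median 40.6), 2.02-fold lower (adjusted p = 6.61e-05), and IL1B from 88.4 to 138 CPM (median 100.3) to 48.2 to 79.96 CPM (median 58.5), 1.75-fold lower (adjusted p = 0.000842). For both cytokines all 6 Confluent libraries were below all 6 Subconfluent ones, in the opposite direction to the antagonist.

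Of 29 DNA replication genes 0 passed by edgeR (median -0.10), with 10 at an unadjusted p under 0.05, 8 of them lower. DESeq2 called 1 lower, as did edgeR without KAT2AB_KD Subconfluent 2, and 2 fell with the libraries paired. Of 28 mitosis genes 4 rose (median 0.17), and 8 rose with the libraries paired. In the paired fit 907 of all 14871 tested genes rose and 814 fell. CCNB1, the mitotic cyclin, ran from 148 to 196 CPM (median 185) to 202 to 289 CPM (median 265), 1.42-fold (adjusted p = 0.00912). KIF20A, a kinesin of cell division, ran from 58.3 to 72.8 CPM (median 64.1) to 76.1 to 94.5 CPM (median 91.5), 1.37-fold (adjusted p = 0.00461). The stages did not overlap for either gene, nor for CCNB2. The fourth, CDC20, passed at an adjusted p of 0.0337 and kept that call only without KAT2AB_KD Confluent 1 or KAT2AB_KD Subconfluent 2 among the 12 fits that leave out 1 library.

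Among 19 p53 targets and cyclin-dependent kinase inhibitors 3 rose and 2 fell (median 0.10), and 5 and 4 did with the libraries paired. BTG2, an antiproliferative gene, ran from 29.99 to 49.8 CPM (median 46.3) to 67.5 to 87.5 CPM (median 78.7), 1.87-fold (adjusted p = 6.53e-05), without overlap. PLK3, a stress kinase, fell by 0.88 on the log2 scale (adjusted p = 0.00144). The other faller, the death receptor gene TNFRSF10B (adjusted p = 0.0398), kept its call only without KAT2B_KD Subconfluent 1 or KAT2AB_KD Confluent 1. Of 28 MYC targets and ribosome biogenesis genes 1 fell (median -0.00). The faller was MYC, from 158 to 198 CPM (median 173) to 83.6 to 171 CPM (median 128) (adjusted p = 0.0416), and its call was kept only without KAT2B_KD Subconfluent 1, KAT2B_KD Subconfluent 2 or KAT2B_KD Confluent 1. Of 31 subunits of the SAGA and ATAC complexes 0 passed by edgeR or by DESeq2 (median 0.02), with 3 at an unadjusted p under 0.05 in edgeR. Without KAT2AB_KD Confluent 1 edgeR called 1 higher and 1 lower.

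Amino acid stress genes under ATF4 fell in 11 of 22 tested members and rose in 1 (median -0.50). In the NT libraries, on the joint fit of 16 libraries given below, the list's median change was 0.13 and 0 members were lower. ATF4, the transcription factor itself, ran from 104 to 184 CPM (median 145) to 72.9 to 103 CPM (median 83.4), 1.67-fold lower (adjusted p = 0.000314). TRIB3, a pseudokinase induced by it, ran from 87.2 to 183 CPM (median 107) to 43.1 to 70.2 CPM (median 51.1), 2.24-fold lower (log2 -1.16 ± 0.11 SE, adjusted p = 1.26e-05). MTHFD2, a mitochondrial folate enzyme, ran from 85.9 to 130.3 CPM (median 105) to 59.5 to 72.5 CPM (median 66.4), 1.63-fold lower (adjusted p = 0.000319). The stages did not overlap for these 3 genes. The enzymes of asparagine and serine synthesis ASNS and PSAT1 fell by 0.70 and 0.63 on the log2 scale (adjusted p = 0.000883 and 0.00224). The riser was DDIT4, an inhibitor of mTOR (adjusted p = 0.0152), and it did not pass without KAT2A_KD Subconfluent 1.

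The CHAC1 window is shown because this gene leads the 10 largest falls named above and holds the letters TGATGCAA of the ATF4 motif, as their reverse complement in capitals, 209 bases before the start. It lies on GRCh38.p14 at chr15:40953221-40953470 on the plus strand.
CHAC1: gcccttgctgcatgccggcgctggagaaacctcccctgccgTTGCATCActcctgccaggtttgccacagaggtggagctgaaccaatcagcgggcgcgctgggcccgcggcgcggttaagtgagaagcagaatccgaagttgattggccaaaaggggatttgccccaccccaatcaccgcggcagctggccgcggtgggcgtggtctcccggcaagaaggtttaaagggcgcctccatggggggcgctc
Of 31 windows of 19 listed genes 2 hold these letters on either strand (6.45%), those of CHAC1 and JDP2, against 0.45% of the windows of all tested genes. TRIB3 has none in its 3 windows.

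Cholesterol synthesis genes fell in 7 of 23 tested members and rose in 1 (median -0.24). HMGCS1, an early enzyme of the pathway, ran from 656 to 858 CPM (median 836) to 389.9 to 569.6 CPM (median 497), 1.599-fold lower (adjusted p = 0.000341), without overlap. INSIG1, a sterol sensor, ran from 154 to 231 CPM (median 207) to 107 to 163 CPM (median 125), 1.57-fold lower (adjusted p = 0.000717), with overlap. Without KAT2A_KD Subconfluent 1 the count that fell was 4. The riser, MVK (adjusted p = 0.0292), kept its call in the fits without KAT2B_KD Subconfluent 1, KAT2AB_KD Confluent 1, KAT2B_KD Confluent 2 or KAT2A_KD Confluent 2, and lost it without each of the other 8 libraries.

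Hypoxia and glycolysis genes rose in 7 of 24 tested members and fell in 1 (median 0.24). SLC2A1, the glucose transporter GLUT1, ran from 146 to 174 CPM (median 160.0) to 377 to 529 CPM (median 422), 2.71-fold (log2 1.44 ± 0.10 SE, adjusted p = 4.27e-07). NDRG1, a hypoxia and differentiation gene, ran from 116 to 164 CPM (median 147) to 231 to 478 CPM (median 305), 2.25-fold (adjusted p = 2.88e-05), and ADM, adrenomedullin, from 5.73 to 10.1 CPM (median 7.75) to 17.2 to 29.4 CPM (median 21.1), 2.77-fold (adjusted p = 3.77e-05). For these 3 genes every Confluent library was above every Subconfluent one. CA9, a carbonic anhydrase, ran from 0 to 0.562 CPM (median 0.154) to 0.252 to 3.32 CPM (median 1.02) (adjusted p = 0.012), a call lost without KAT2A_KD Confluent 1 (adjusted p = 0.0662). PFKFB3, a regulator of glycolysis, was the faller (adjusted p = 0.0163) and did not pass without KAT2AB_KD Subconfluent 1.

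Of 20 tested NRF2 target genes 5 rose and 2 fell (median 0.17). AKR1C1, AKR1C2, AKR1C3 and AKR1B10, aldo-keto reductases, rose by 1.37 to 1.56 on the log2 scale; AKR1C1, AKR1C2 and AKR1C3 are near-identical copies, so their separate values are uncertain. TXNRD1, thioredoxin reductase, went the other way, from 78.9 to 107 CPM (median 97.6) to 38.5 to 62.7 CPM (median 53.4), 1.86-fold lower (adjusted p = 0.000295), without overlap. SLC7A11, the cystine transporter counted also with the ATF4 genes, was the second faller (adjusted p = 0.029). It kept its call without KAT2B_KD Subconfluent 1, KAT2AB_KD Confluent 1, KAT2AB_KD Subconfluent 2 or KAT2A_KD Confluent 2 and lost it without each of the other 8 libraries.

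Markers of other cell types gave 1 call. SOX10, a factor of melanocytes and other neural crest cells, ran from 2.36 to 7.599 CPM (median 5.296) to 1.21 to 3.73 CPM (median 1.55) (log2 -1.49 ± 0.34 SE, adjusted p = 0.0129). The call was lost without KAT2B_KD Subconfluent 2 (adjusted p = 0.0516). Of the 5 tested fibroblast markers 0 passed by edgeR or DESeq2, with 0 at an unadjusted p under 0.05. The part of other cell types in the remaining results was not tested. In bulk RNA, fewer cells of a type and less RNA per cell cannot be told apart.

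The direction of the shared change held in each genotype. Of the 1107 genes that passed, 1104 had the same sign in all 3 genotypes, which is partly set by how they were chosen. Tested within 1 genotype at a time, with the spread pooled over 6 groups, 106 genes passed in KAT2AB_KD (0.713%), 44 higher (0.296%) and 62 lower (0.417%). In KAT2B_KD 287 passed (1.93%), 168 higher (1.13%) and 119 lower (0.8%). In KAT2A_KD 44 passed (0.296%), 27 higher (0.182%) and 17 lower (0.114%). The counts moved when 1 library was left out, in fits where the lone library of a group is taken to vary like the others. Without KAT2AB_KD Subconfluent 1, Subconfluent 2 or Confluent 2 the KAT2AB_KD count was 5, 20 or 43. Without KAT2B_KD Subconfluent 1, Subconfluent 2, Confluent 1 or Confluent 2 the KAT2B_KD count was 86, 138, 89 or 73. Without KAT2A_KD Subconfluent 1, Subconfluent 2 or Confluent 2 the KAT2A_KD count was 0, 0 or 8.

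Genes picked in 1 genotype were also read in the remaining ones. The picks used a spread pooled over all 6 groups, so this reading is not independent of the libraries in which the genes are read. All 106 genes picked in KAT2AB_KD had the same sign of change in both other genotypes, as did 275 of 287 picked in KAT2B_KD (95.8%) and all 44 picked in KAT2A_KD. Among all tested genes 45.1% had 1 sign in the 3 genotypes. In all 3 genotypes 29 genes passed, among them GRHL3, IGFBP3, CXCL14, AQP3, TGM1, KLF5, GJB6, SLC2A1 and NDRG1 (higher) and THBS1, PMEPA1, ADAM19, ADAMTS6, SOX9, CYR61, F3 and TRIB3 (lower). Of the 1107 genes 804 passed in no single genotype and 224 passed in 1. PMEPA1 had nearly the same log2 difference in each: -1.90 ± 0.22 SE in KAT2AB_KD, -1.88 ± 0.22 SE in KAT2B_KD and -1.88 ± 0.22 SE in KAT2A_KD.

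**Figure D4:**
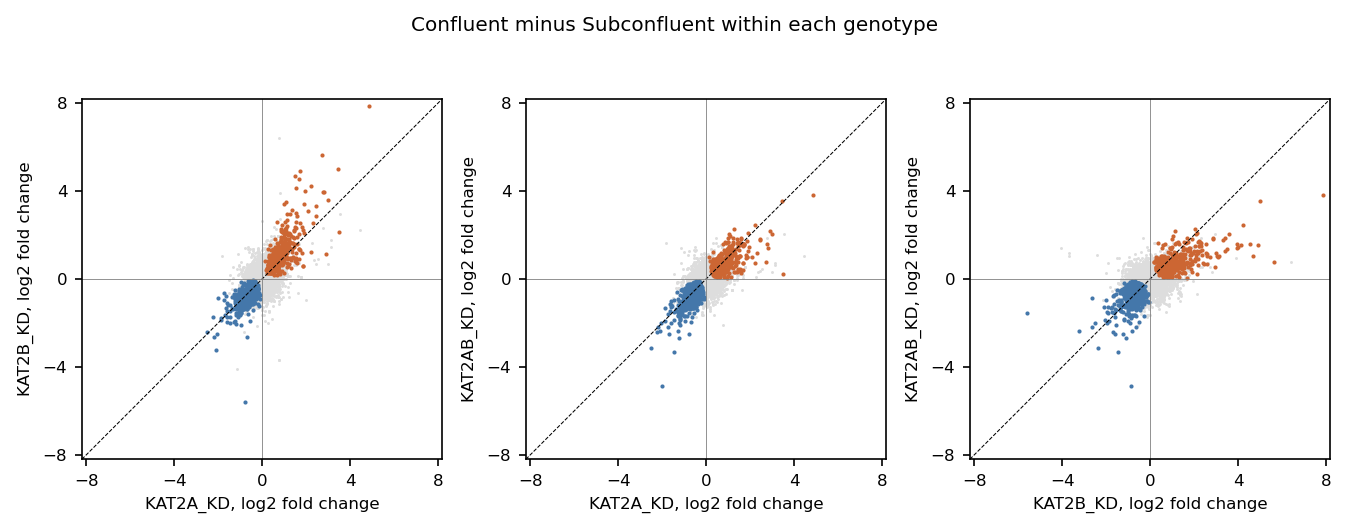
Log2 difference, Confluent minus Subconfluent, within 1 genotype (x axis) against another (y axis), for 12792 genes whose mean log2 CPM was 1 or more (grey), of which 474 were called higher (orange) and 566 lower (blue) in the test over 12 libraries; the dashed line marks equal values. The orange points reach farther in KAT2B_KD, where the 517 higher genes had a median of 0.96, against 0.64 in KAT2AB_KD and 0.72 in KAT2A_KD.

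Over the 517 higher genes the median log2 difference was 0.64 in KAT2AB_KD, 0.96 in KAT2B_KD and 0.72 in KAT2A_KD, and over the 590 lower genes it was -0.66, -0.72 and -0.57. In CPM of the 2 Subconfluent and then the 2 Confluent libraries, AQP3 stood at 4.44 and 7.01 then 15.6 and 16.2 in KAT2AB_KD, 2.27 and 1.18 then 24.5 and 30.9 in KAT2B_KD, 5.32 and 5.903 then 20.1 and 22.7 in KAT2A_KD. The KAT2B_KD libraries were the lowest of the 3 genotypes at Subconfluent and the highest at Confluent. NOTCH3 stood, in the same order and unit, at 21.9 and 26.2 then 68.4 and 31.1 in KAT2AB_KD, 0.168 and 0.664 then 8.13 and 14.3 in KAT2B_KD, 7.99 and 9.84 then 25.8 and 24.7 in KAT2A_KD. TGM1 stood at 32.5 and 22.5 then 75.5 and 55.6 in KAT2AB_KD, 2.53 and 2.21 then 27.1 and 23.5 in KAT2B_KD, 12.3 and 10.4 then 49.1 and 35.1 in KAT2A_KD. For NOTCH3 and TGM1 the KAT2B_KD libraries were the lowest of the 3 genotypes at both stages, so the larger ratio went with a lower starting level. HRNR had 0 reads in both KAT2B_KD Subconfluent libraries and 153 reads in the Confluent ones, at least 60.8-fold higher against a floor of 3 reads over the 2 libraries.

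In the test of the difference itself, 0 genes differed among the 3 genotypes at an adjusted p under 0.05 (0% of those tested) by edgeR, with 530 genes at an unadjusted p under 0.05 (3.56%). DESeq2 called 7 genes: HRNR, NOTCH3, AQP3, TGM1, IGFBP3, FGFR3 and CKB, the last 2 named after their values were seen. With no filter on low counts edgeR called 60. Without KAT2AB_KD Subconfluent 2 edgeR called 1. For AQP3 the KAT2AB_KD change minus the KAT2B_KD change was -2.54 ± 0.42 SE on the log2 scale (edgeR, adjusted p = 0.293). The KAT2A_KD change minus the KAT2B_KD change was -2.08 ± 0.43 SE on the log2 scale (edgeR, adjusted p = 1).

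The same step was read in the NT libraries, on a joint fit of 16 libraries and 14971 genes. In NT 140 genes were higher (0.935%) and 78 lower (0.521%) in Confluent, 1.46% in all. As the mean of the 3 knockdown genotypes, with 12 libraries to the 4 of NT, 520 were higher (3.47%) and 572 lower (3.82%), 7.29% in all. The mean change of the 3 knockdown genotypes was below the NT change for 4 genes (0.0267%) and above it for 0 at an adjusted p under 0.05, with 622 genes at an unadjusted p under 0.05 (4.15%). All 4 are interferon-stimulated genes. ISG15, a ubiquitin-like antiviral protein, stood at 7.06 to 18.1 CPM in the Subconfluent and 18.2 to 33.6 CPM in the Confluent knockdown libraries, against 18.8 and 24.4 CPM, then 143 and 172 CPM, in NT. DDX58, the RNA sensor RIG-I, stood at 5.86 to 10.5 CPM in the Subconfluent and 4.51 to 12.2 CPM in the Confluent knockdown libraries, against 16.1 and 15.7 CPM, then 48.2 and 52.5 CPM, in NT. In both genes the NT Confluent libraries lay above every other library.

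The log2 change of ISG15 was 0.80 ± 0.15 SE in the knockdowns and 2.87 ± 0.26 SE in NT, a difference of -2.07 ± 0.29 SE (adjusted p = 0.0403). For DDX58 it was -0.03 ± 0.13 SE and 1.67 ± 0.22 SE, a difference of -1.70 ± 0.25 SE (adjusted p = 0.0403). IFIT3, an antiviral RNA-binding protein, stood at 6.74 to 13.5 CPM in the Subconfluent and 9.02 to 15.3 CPM in the Confluent knockdown libraries, against 23.9 and 24.5 CPM, then 90.4 and 87.2 CPM, in NT. Its change was 0.38 ± 0.12 SE and 1.88 ± 0.20 SE, a difference of -1.49 ± 0.23 SE (adjusted p = 0.0403). MX1, an antiviral GTPase, stood at 4.57 to 31.6 CPM in the Subconfluent and 17.4 to 46.4 CPM in the Confluent knockdown libraries, against 63.5 and 34.4 CPM, then 388 and 385 CPM, in NT. Its change was 1.25 ± 0.14 SE and 2.98 ± 0.24 SE, a difference of -1.73 ± 0.27 SE (adjusted p = 0.0448). The count changed with single libraries: 6 genes passed without KAT2AB_KD Confluent 2, 3 without KAT2B_KD Subconfluent 2, 2 without KAT2AB_KD Confluent 1, 1 without NT Subconfluent 1, and 0 without each of the other 12 libraries. DESeq2 called 27 genes.

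Within the 12 knockdown libraries 13 of 34 tested interferon genes rose (median log2 difference 0.56), and the median NT change of the list was 1.83. MX1 ran from 4.63 to 31.8 CPM (median 10.7) to 17.8 to 45.6 CPM (median 28.6), 2.29-fold (adjusted p = 0.000706), and IFIT1, an antiviral RNA-binding protein, from 1.601 to 4.696 CPM (median 3.34) to 4.03 to 11.1 CPM (median 7.08), 2.196-fold (adjusted p = 0.000527). Both ranges overlapped across genotypes. The count was 7 without KAT2A_KD Subconfluent 1 or KAT2B_KD Subconfluent 2, and 8 without KAT2B_KD Confluent 1, KAT2A_KD Confluent 1 or KAT2B_KD Confluent 2. In the joint fit 35 of the 36 interferon genes had a knockdown change below the NT change, against 7340 of all 14971 genes (49%). In the barrier stress and inflammation list, where 11 genes rose in NT, 15 of 18 genes had a knockdown change below the NT change, with a median knockdown minus NT difference of -0.77. The SPRR and LCE families had a median difference of -0.80, with 9 of 15 genes below 0, and the ATF4 list one of -0.48, with 21 of 22 below 0. On the scale of 16 libraries ATF4 itself stood at 104 to 182 CPM in the Subconfluent knockdown libraries, against 74.5 and 89.0 CPM in NT. At Confluent it stood at 74.1 to 100.2 CPM in the knockdown libraries, against 100.5 and 77.0 CPM in NT. Differences that rest on levels near the floor are uncertain. LCE3E (difference -6.15) stood at 0 CPM in both NT Subconfluent libraries and at 0.259 and 0.314 CPM in the NT Confluent ones. S100A7 (difference -4.94) stood at 0.249 and 0 CPM, then 0 and 0 CPM, in KAT2B_KD. The other lists with 10 or more calls had medians of this difference of 0.18 (spinous), 0.12 (epidermal transcription factors), 0.06 (junctions), 0.27 (TGF-beta), 0.29 (metalloproteases), -0.18 (YAP and TAZ targets) and -0.23 (EGF receptor family). In all of these 10 lists 0 genes passed the test of the difference.

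**Figure D5:**
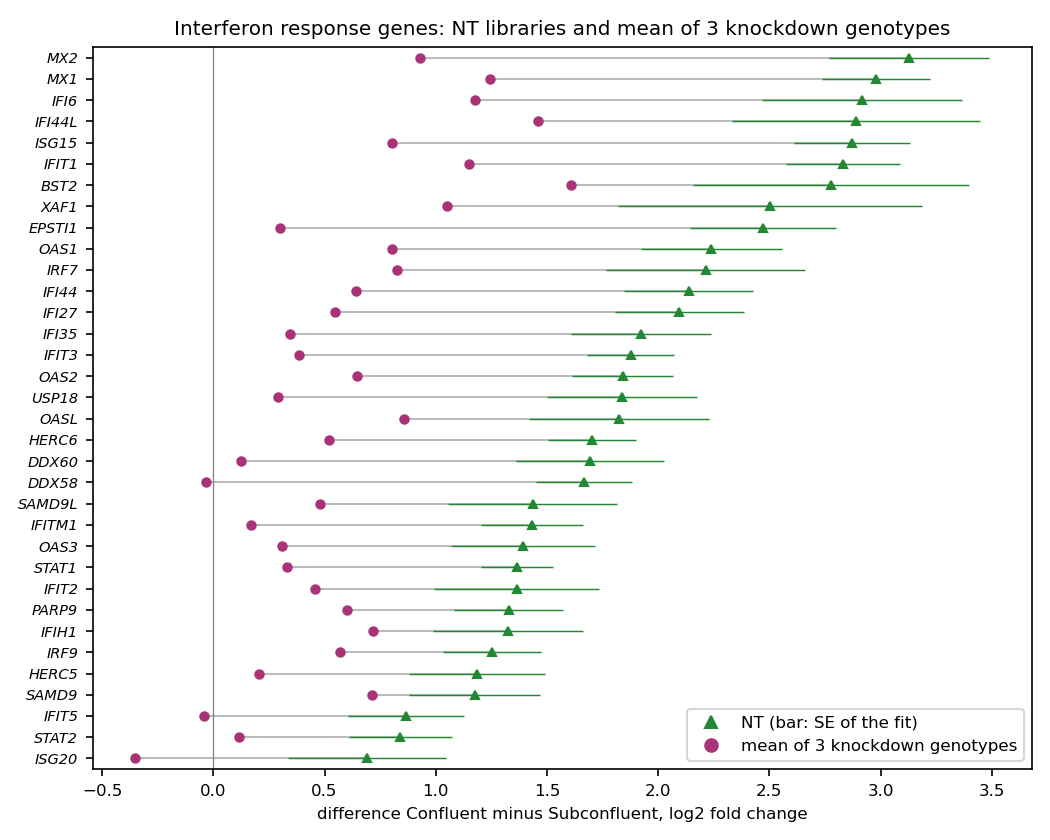
Log2 difference, Confluent minus Subconfluent, of the 34 interferon response genes in NT (green triangles, bar the SE of the fit) and as the mean of the 3 knockdown genotypes (purple circles), ordered by the NT value. ISG15 lies at 2.87 in NT and 0.80 in the knockdowns; each purple circle lies to the left of its green triangle.

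The ISG15 window is shown because of the 4 genes that passed this one had the lowest difference from NT. On GRCh38.p14 it lies at chr1:1013247-1013496 on the plus strand, with the letters of the interferon-stimulated response element (GAAA, any 2 bases, GAAA) or their reverse complement in capitals.
ISG15: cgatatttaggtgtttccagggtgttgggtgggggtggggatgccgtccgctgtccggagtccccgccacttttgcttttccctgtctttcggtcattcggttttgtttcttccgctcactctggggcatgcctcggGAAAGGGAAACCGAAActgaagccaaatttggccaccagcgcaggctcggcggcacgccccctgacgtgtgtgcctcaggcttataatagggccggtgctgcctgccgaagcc
It holds 2 overlapping matches, from 113 and 107 bases before the start. Among 34 windows of 27 interferon genes 22 hold this motif (64.7%), against 2.57% of the windows of all tested genes. IFIT3 and MX1 have a match in at least 1 window, and DDX58 has none.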

How the data were processed

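The deposited table holds raw read counts per gene symbol, which the authors made with Bowtie2 and featureCounts on hg19, per the submitters' processing notes; versions, strand setting, annotation and treatment of multi-mapping reads are not given in the sources used here. The authors' normalized table was not used, and 1 count column that matches no sample was left out.

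Counts were tested as deposited with edgeR 4.0.16 (R 4.3.3): trimmed-mean library sizes, filterByExpr by group, a quasi-likelihood fit with genotype and stage, and Benjamini-Hochberg adjustment over 14871 genes (threshold 0.05). The per-genotype tests fitted 6 groups, and the comparison with NT fitted 8 groups over 16 libraries. Totals of 8010178 to 15550650 counts per library set the precision of low genes. The scripts were tested on simulated data.

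The deposited replicate numbers 2 and 3 (1 and 2 in the text) were checked for pairing. Same-numbered Confluent and Subconfluent libraries deviated together from their group means (r = 0.316, 0.264 and 0.126 in KAT2AB_KD, KAT2B_KD and KAT2A_KD), each over 0.1, although 12 of 15 pairs of groups also exceeded 0.1. The highest r among the 15 pairs of groups, 0.352, was not one of these own-genotype values, so the check does not single out pairs within a genotype. The same-numbered libraries of a genotype were taken as pairs, and the unpaired fit stayed the main one.

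The members and the 27 gene lists were chosen with earlier results of these data known; 1 listed gene is not reported here and was left out of its list afterwards. Named are the 10 highest and 10 lowest log2 differences among genes past the threshold whose log2 CPM averaged 1 or more and whose Confluent libraries lay both on 1 side of both Subconfluent ones in every genotype, the 4 lowest p-values of each list, further list members whose outcome is stated, genes that differ from NT, and the targets. Promoter windows (250 bases) are RefSeq's, GRCh38.p14; 7 motifs were searched on both strands, each in 1 list. The other 4 were SMAD (GTCTAGAC; 0 of 25 windows of the TGF-beta list), AP-1 (TGAGTCA; 1 of 7 of the metalloprotease list), GRHL (AACCGGTT; 0 of 18 of the spinous list) and the E-box CACGTG (5 of 29 of the MYC list), against 0.142%, 3.17%, 0.148% and 8.16% of all windows. Alternatives included DESeq2 1.42.0, other filters and scalings, blocks, and leaving out each library or genotype.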

Additional observations from a re-analysis of the deposited data

Results flagged for a closer look

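For 4 genes the change from Subconfluent to Confluent differed between the knockdown genotypes and NT by a test of the difference itself. The log2 difference of the changes (mean of 3 knockdowns minus NT) was -2.07 for ISG15, -1.70 for DDX58, -1.49 for IFIT3 and -1.73 for MX1. Each kept its sign in all 16 fits that left out 1 library, and 0 to 6 genes passed in them.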

How the results depend on the processing

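The 1107 shared calls (1069 of them where 1 CPM in 6 libraries was required) kept their direction under every alternative run, except 1 gene without genotype KAT2AB_KD. This is largely set by the choice, because the alternatives refit the same libraries. Of the 1107 calls 1102 were kept by DESeq2 and 732 with no genotype covariate. Without genotype KAT2AB_KD, KAT2B_KD or KAT2A_KD 625, 464 or 416 were kept. Against 1107 genes (517 higher, 590 lower), 1671 (899 higher) passed with no filter on low counts, 732 (312 higher) with no genotype covariate, and 1721 (907 higher) with the replicate block of 6 pairs. DESeq2 called 778 higher. Leaving out genotype KAT2AB_KD gave 732 (360 lower), KAT2B_KD 481 (213 higher, 268 lower) and KAT2A_KD 417 (195 higher, 222 lower), from 8 libraries each. Leaving out 1 library gave 776 to 1330. The replicate block by number alone gave 1264. Of 138 named genes that passed, both blocks kept all, leaving out 1 library lost 3 to 11, no genotype covariate 32, all 24 libraries in the fit 20, and leaving out genotype KAT2AB_KD, KAT2B_KD or KAT2A_KD 25, 36 or 38. In KAT2AB_KD, KAT2B_KD and KAT2A_KD the counts were 334, 757 and 212 with no filter, 248, 515 and 142 by DESeq2, 12, 63 and 80 with only the genotype's 4 libraries, and 5 to 106, 73 to 138 and 0 to 36 without 1 library. The test among genotypes called 60 with no filter, 7 by DESeq2 and 0 to 1 without 1 library. The difference from NT called 61, 27 and 0 to 6 in the same order. Where counts moved without fewer libraries or another gene set, the cause was not tested.

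Among named genes that did not pass, 3 changed sign. DDX58 was at 0.032 with no genotype covariate, 0.18 without genotype KAT2B_KD and -0.11 to 0.066 without 1 library. KAT2A was at 0.28 with no covariate, 0.46 without genotype KAT2AB_KD and -0.16 to 0.26 without 1 library. COL1A1 was at -0.23 without genotype KAT2B_KD.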

Other observations

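The Differentiated libraries (day 4) of the same 3 genotypes were read for the named genes, a comparison added after the data were seen. It shares the Confluent libraries with the comparison above, so the levels are given side by side, as medians of 6 libraries at Subconfluent, Confluent and Differentiated on a scale computed over 18 libraries. Of 15619 genes 9993 passed between Confluent and Differentiated (64% by edgeR's quasi-likelihood test), so a pass there is common. All 10 genes with the largest rises were higher again, each at an adjusted p under 0.05 by that test, and 3 picked after their values were seen are given. DSG1 had medians of 2.08, 9.88 and 2174 CPM, GRHL3 of 2.41, 14.7 and 100.2 CPM, and IGFBP3 of 0.951, 34.2 and 842 CPM. The matrix gene THBS1 was lower again, with 7540.1, 1991 and 511 CPM.

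Some genes that fell at confluence were higher again at day 4. CHAC1 had medians of 4.54, 0.947 and 11.1 CPM, and ATF4, its regulator, of 129.6, 74.7 and 144 CPM. The TGF-beta feedback gene PMEPA1 had 84.4, 22.4 and 61.0 CPM, the Notch ligand JAG1 170.03, 104 and 199 CPM, and the integrin gene ITGB6 70.8, 38.1 and 65.8 CPM. These 5 genes were picked for a low level in the same Confluent libraries, so a rise from that level is partly set by the choice. The mitotic genes CCNB1 and KIF20A were lower than at either earlier stage: CCNB1 had 166, 235 and 7.40 CPM and KIF20A 57.2, 82.4 and 2.59 CPM.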
